A study of Mus musculus with 8 samples.

Results

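Translation initiation factor genes were taken as the protein-coding autosomal and X-linked genes whose GENCODE symbol begins with Eif and a digit. Of the 22430 genes listed in the count table, 72 met this rule, which used gene names and no measured value. RNA had been extracted from brain hemispheres of 8 male C57Bl/6JRj mice, 4 young adults at 6 months (6m) and 4 that had reached 24 months (24m), and sequenced as paired-end libraries of polyadenylated RNA. The labels name the tissue whole brain, give a single library for each animal and name no genotype or treatment, so that age is the difference between the groups. The comparison asked which initiation factors and factor complexes had other mRNA levels in the aged than in the young adult brain.

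Protein synthesis starts when eIF2, a complex of an alpha (Eif2s1), a beta (Eif2s2) and a gamma subunit (Eif2s3x), delivers the initiator methionyl-tRNA to the small ribosomal subunit, helped by eIF1, eIF1A, eIF3 and eIF5. The mRNA is brought in by eIF4F, which joins the cap-binding protein eIF4E, the scaffold eIF4G and the RNA helicase eIF4A, and eIF4E-binding proteins compete with eIF4G for eIF4E until they are phosphorylated downstream of mTORC1. Stress-activated kinases phosphorylate eIF2 alpha and thereby block its recharging by the exchange factor eIF2B, and in neurons both this pathway and eIF4E-binding proteins are known for their part in synaptic plasticity and memory.

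The regulated sites of 5 genes are printed because the results on eIF2, the eIF4E-binding proteins and eIF5A turn on these genes. Each stretch of 27 bases lies in exon 2 of the canonical transcript, as numbered in the annotation. It was read from GRCm39 and is given 5′ to 3′ on the coding strand, with codons counted from the start codon. In Eif2s1 (chr12:78913442-78913468, plus strand) the capitals mark codon 52, the serine that the eIF2 alpha kinases phosphorylate. Capitals in Eif4ebp1 (chr8:27763362-27763388, plus strand) and Eif4ebp2 (chr10:61270845-61270871, minus strand) mark the eIF4E-binding motif, which begins at codon 53 and codon 54, respectively. For Eif5a (chr11:69809980-69810006, minus strand) and Eif5a2 (chr3:28836336-28836362, plus strand) the capitals mark codon 50, the lysine that is converted to hypusine. The Eif4ebp1 and Eif4ebp2 stretches differ at 5 bases and those of Eif5a and Eif5a2 at 3 bases.
Eif2s1: cttagtgaattaTCCagacgacgtatc
Eif4ebp1: atcTATGACCGGAAATTTCTGATGgag
Eif4ebp2: attTATGACCGAAAGTTTCTGTTGgac
Eif5a: tcgaagactggcAAGcatggccatgcc
Eif5a2: tccaagactgggAAGcatggtcatgcc

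The libraries held 63460940 to 103462414 assigned counts, and edgeR was run on the 16730 genes that exceeded 5 counts in at least 4 libraries. Calls of genes as up- or downregulated at 24m required a Benjamini-Hochberg adjusted p-value (padj) no higher than 0.05 together with a log2 fold change (log2FC) of at least 0.58 in size. The library 24m replicate 1 stood apart, with a mean Spearman correlation of 0.979 with the other 24m libraries and 0.978 with the 6m libraries, so counts are also given without it. Values of the 4 libraries of an age are listed in the order of their replicate numbers. Of the markers of brain cell types, upregulation and downregulation were called for 2 and 1 of 6 neuron, 4 and 0 of 6 astrocyte, 1 and 0 of 6 oligodendrocyte, 2 and 0 of 6 microglia, 1 and 2 of 6 endothelial and 2 and 0 of 6 choroid plexus genes, and 0 and 5 of 5 red blood cell genes, beside 25.3% and 18.3% of all genes tested. None of these marker genes was at 0 over the 8 libraries together. Summed astrocyte markers ranged from 332 to 363 CPM (counts per 1e+06 of the scaled library size) at 6m and from 451 to 686 CPM at 24m, and summed red blood cell markers from 5426 to 7604 CPM and from 1242 to 4156 CPM. The part of these shifts in the results on initiation factors was not tested, and in bulk tissue fewer cells of a type and less RNA per cell cannot be told apart.

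Among the initiation factors, downregulation was the more frequent direction at 24m. Of the 72 genes, 54 passed the filter on low counts and were tested. Upregulation was called for 8 genes (14.8% of those tested) and downregulation for 18 (33.3%), while over all genes tested 25.3% were upregulated and 18.3% downregulated, and the counts by role are to be read beside these shares. In either direction 48.1% of the tested initiation factors were called, beside 43.6% of all genes. Without 24m replicate 1, the counts were 8 upregulated and 21 downregulated, beside 4673 and 3592 of the 16592 genes then tested. Padj alone was passed by 10 higher and 29 lower genes, together 72.2% of those tested, against 62.6% of all genes (32.7% higher and 29.9% lower). The 4 libraries of 24m lay above the 4 of 6m for 9 initiation factors and below them for 25, and over all genes this held for 28.4% and 26.8%. The median log2FC of the tested initiation factors was -0.26, and that of all genes was -0.0034. Scaling by library totals alone moved the median of all genes to 0.21 and that of the initiation factors to -0.036, with 10 up- and 8 downregulated. With that scaling the upregulated share of the called genes went from 58.1% to 75.7% over all genes, and from 30.8% to 55.6% among initiation factors. Quantile normalization gave 47.9% over all genes and 39.1% among initiation factors.

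**Figure D1:**
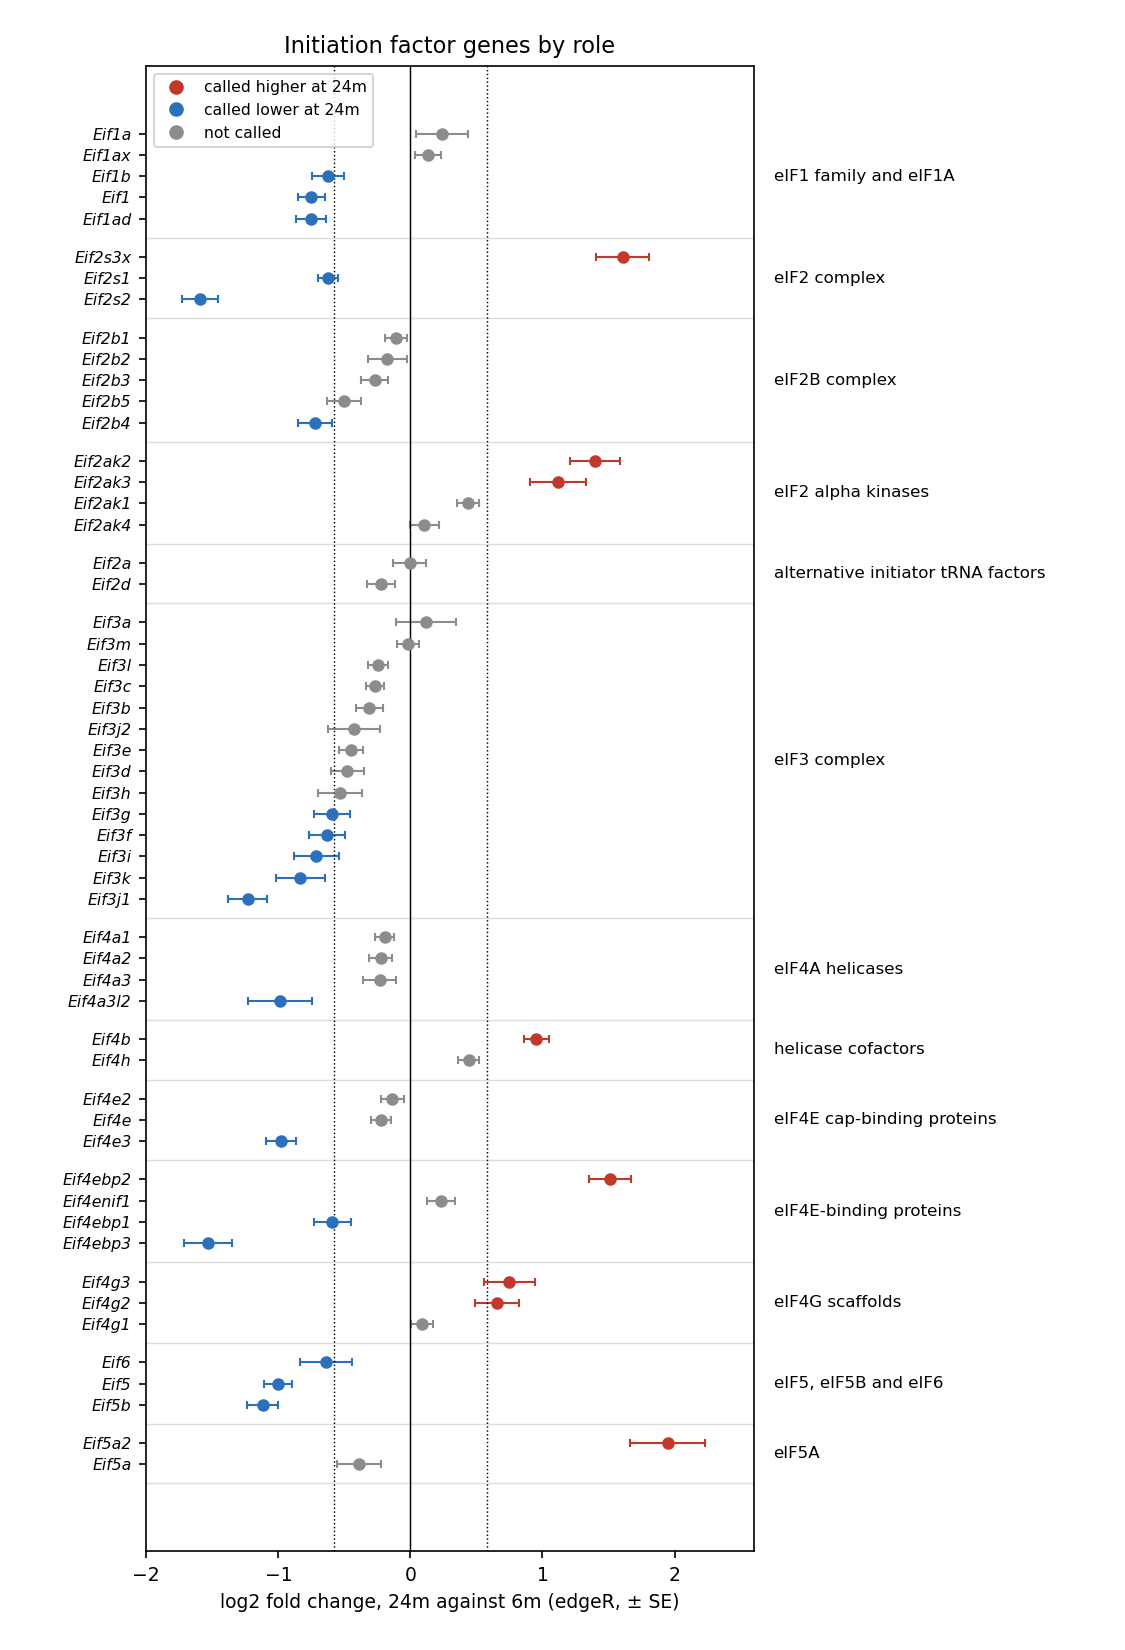
The log2 fold change of 24m against 6m from edgeR is plotted for the 54 tested initiation factor genes, grouped by role, with bars of 1 standard error and dotted lines at the fold threshold of 0.58 in either direction. Upregulated genes (8, red) include 2 of the 4 eIF2 alpha kinases and 2 of the 3 eIF4G scaffolds, and downregulated genes (18, blue) include 5 of the 14 eIF3 genes and the 3 genes of the group of eIF5, eIF5B and eIF6.

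The 3 subunits of eIF2 did not move together, as the mRNA of the gamma subunit was upregulated and those of the alpha and beta subunits were downregulated. Eif2s3x (chrX:93232313-93256468), which encodes the GTP-binding gamma subunit, was at 11, 16.8, 15.3 and 8.99 CPM in the 6m libraries and at 33.7, 38.3, 37.7 and 49.0 CPM in the 24m libraries. The 24m libraries were well above those of 6m, and upregulation was 3.05-fold (log2FC = 1.61 ± 0.20 SE, edgeR padj = 0.000188). Eif2s2 (chr2:154713330-154734855), the beta subunit that contacts eIF5 and eIF2B, was measured at 119, 94.1, 98.1 and 105 CPM at 6m and at 42.7, 35.8, 30.3 and 29.3 CPM at 24m. The libraries of both ages were far apart, and the level at 6m was 3.01 times that at 24m (log2FC = -1.59 ± 0.13 SE, edgeR padj = 3.34e-05). Eif2s1 (chr12:78907681-78935018), the phosphorylated alpha subunit whose serine codon is printed above, had 34.2, 33.9, 35.8 and 35.7 CPM at 6m and 23.6, 23.4, 21.2 and 22.2 CPM at 24m. The 24m libraries were closely grouped below the 6m libraries (log2FC = -0.63 ± 0.08 SE, edgeR padj = 0.000163). This call was lost with scaling by library totals alone, at a log2FC of -0.41.

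Set on a common length scale (CPM per kilobase of canonical transcript), the order of the 3 subunits changed between ages. At 6m the level of Eif2s2 was 40.9 ± 4.34 CPM per kilobase (SD, n = 4), that of Eif2s1 10.3 ± 0.296 and that of Eif2s3x 3.57 ± 0.997. At 24m Eif2s2 stood at 13.6 ± 2.42, Eif2s3x at 10.9 ± 1.80 and Eif2s1 at 6.64 ± 0.325 CPM per kilobase. The libraries of Eif2s2 and Eif2s3x overlapped at 24m on this scale, while the other neighbours in the order were separate at each age. Eif2s3y, the Y-linked copy of the gamma subunit gene, lies outside the rule, and its coding sequence was identical to that of Eif2s3x at 86.3% of aligned bases. It stood at 1.89 ± 0.555 CPM per kilobase at 6m and 1.47 ± 0.252 at 24m, with overlapping libraries (log2FC = -0.36 ± 0.23 SE, edgeR padj = 0.196).

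Of the 4 eIF2 alpha kinase genes, Eif2ak2 and Eif2ak3 were upregulated, and no kinase gene was downregulated. Eif2ak2 (chr17:79159972-79190012) encodes PKR, which is activated by double-stranded RNA, and was at 0.457, 0.453, 0.448 and 0.363 CPM in the 6m libraries and at 0.936, 1.04, 1.24 and 1.34 CPM in the 24m libraries. Levels were low in both groups but did not overlap, and upregulation was 2.64-fold (log2FC = 1.40 ± 0.19 SE, edgeR padj = 0.00026). Eif2ak3 (chr6:70821461-70882235), which encodes the endoplasmic reticulum stress kinase PERK, was measured at 9.14, 11.9, 12.1 and 9.21 CPM at 6m and at 14.4, 23.2, 23.6 and 30.6 CPM at 24m. The lowest value at 24m, that of replicate 1, was still above the highest at 6m (log2FC = 1.12 ± 0.21 SE, edgeR padj = 0.00153). Eif2ak1, the heme-regulated kinase HRI, had 46.4, 56.2, 53.3 and 54.8 CPM at 6m and 67.3, 69.9, 72.2 and 75.4 CPM at 24m. Its libraries did not overlap and padj was passed, while the difference stayed below the fold threshold (log2FC = 0.44 ± 0.09 SE, edgeR padj = 0.00176). With library totals alone it was upregulated (log2FC = 0.66), and after correction for exonic length (0.041) or canonical transcript length (0.073) padj was not passed. Eif2ak4, the kinase GCN2 that senses uncharged tRNA, was at 16.2, 15.3, 16.8 and 15.6 CPM in the 6m libraries and at 14.3, 17.1, 17.2 and 20.1 CPM in the 24m libraries. The 24m libraries spanned those of 6m and padj was not passed (log2FC = 0.11 ± 0.11 SE, edgeR padj = 0.432), and the sign of this difference turned with quantile normalization and with correction for gene length or GC content.

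Among the 5 subunits of eIF2B, the guanine nucleotide exchange factor of eIF2, the regulatory subunit gene Eif2b4 was downregulated and no gene was upregulated. Eif2b4 (chr5:31344902-31350774) was measured at 116, 98.4, 104 and 115 CPM at 6m and at 82.1, 64.0, 62.7 and 53.9 CPM at 24m. The 24m replicate 1 was nearest to the 6m range but below it (log2FC = -0.72 ± 0.13 SE, edgeR padj = 0.00103). This call was lost with library totals alone (-0.51) and with correction for the length of all exons (-0.40), for GC content (-0.5796) or for canonical transcript length (-0.44). Eif2b5, the subunit with the catalytic domain, passed padj below the fold threshold with a mean of 165 CPM at 6m and 116 CPM at 24m (log2FC = -0.51 ± 0.13 SE, edgeR padj = 0.00681), and was at -0.30 with library totals alone. Eif2b3 also passed padj (log2FC = -0.27 ± 0.10 SE, edgeR padj = 0.0384), with 24m replicate 1 at 23.0 CPM inside the 6m range of 22.3 to 25.0 CPM and the other 24m libraries at 18.2 to 18.6 CPM. With library totals alone, without a filter, with the replicate block or without 1 of 6 of the libraries, Eif2b3 no longer passed padj, and after correction for exonic length it was downregulated (-0.64). Eif2b1 (log2FC = -0.11) and Eif2b2 (-0.17) did not pass padj. Eif2b1 passed it with a lower level after correction for exonic length (-0.39) or GC content (-0.23). After correction for canonical transcript length it passed with a higher level (0.18). Eif2b2 passed padj with a higher level after correction for exonic length (0.29) or canonical transcript length (0.24). Eif2a and Eif2d, which can deliver initiator tRNA without eIF2, did not pass padj either, at a log2FC of -0.0053 ± 0.12 SE and -0.22 ± 0.11 SE, but both passed it after correction for exonic length (-0.37 and -0.73) or GC content (-0.29 and -0.34).

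**Figure D2:**
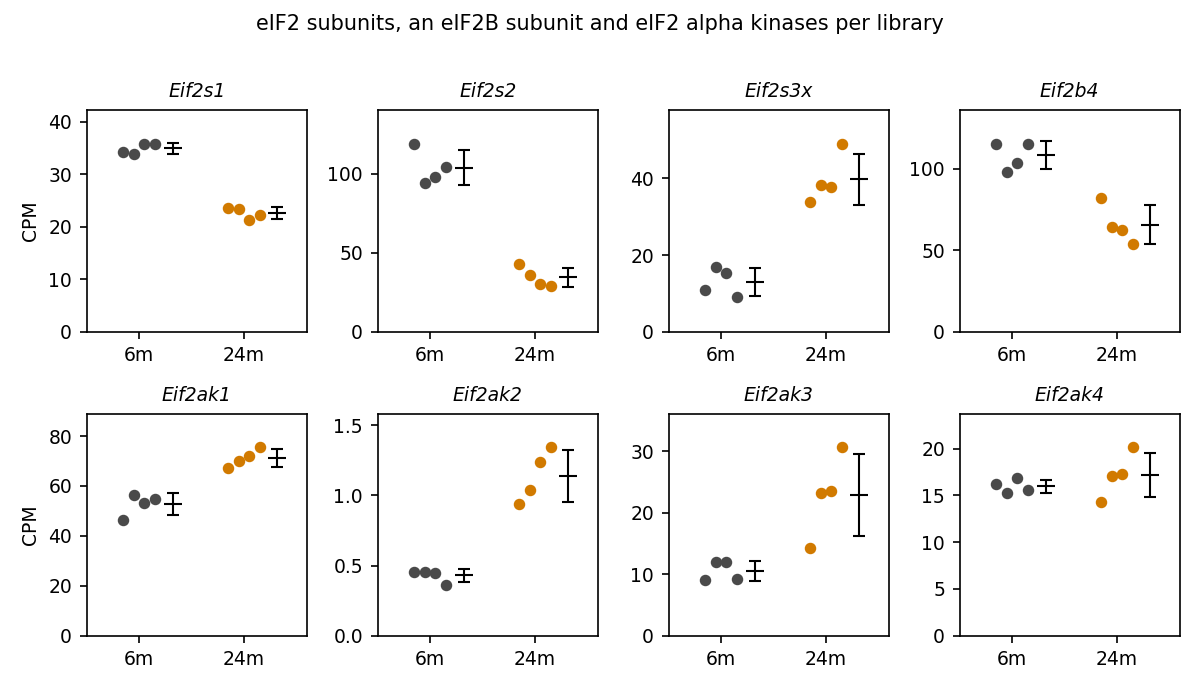
CPM in each of the 8 libraries is plotted for the eIF2 subunits, Eif2b4 and the eIF2 alpha kinases, with the mean and SD of the 4 libraries of each age beside the points and each vertical axis starting at 0. Eif2s3x, Eif2ak1, Eif2ak2 and Eif2ak3 lie higher at 24m without overlap, Eif2s1, Eif2s2 and Eif2b4 lie lower without overlap, and the Eif2ak4 libraries overlap.

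Of the 5 tested genes named for eIF1 or eIF1A, factors that guide start codon selection, 3 were downregulated. Eif1 (chr11:100210670-100212922), the factor that keeps the scanning ribosome open, had 671, 637, 632 and 741 CPM at 6m and 459.9, 398, 379 and 358 CPM at 24m. The groups were separate (log2FC = -0.75 ± 0.10 SE, edgeR padj = 0.000265). Eif1b (chr9:120306993-120324396), a close copy of Eif1, was at 176, 161, 167 and 195 CPM in the 6m libraries and at 141, 107, 109 and 96.5 CPM in the 24m libraries. Its 24m libraries lay below those of 6m (log2FC = -0.62 ± 0.12 SE, edgeR padj = 0.00183), but the call was lost without 6m replicate 4 (log2FC = -0.56) and without 24m replicate 4 (-0.55). Eif1ad (chr19:5416423-5421562), named for its eIF1A-like domain, was measured at 57.8, 56.2, 54.5 and 57.7 CPM at 6m and at 40.9, 31.6, 33.9 and 28.1 CPM at 24m. The 6m libraries were within a narrow range above the 24m libraries (log2FC = -0.75 ± 0.11 SE, edgeR padj = 0.000473). With scaling by library totals alone, Eif1 (-0.53), Eif1b (-0.41) and Eif1ad (-0.54) kept their sign and passed padj, but not the fold threshold. The calls of Eif1 and Eif1b were also lost with quantile normalization (-0.42 and -0.51) and after correction for exonic length (-0.33 and -0.045) or canonical transcript length (-0.20 and 0.056), and that of Eif1b after correction for GC content (-0.53). The eIF1A genes did not pass padj, with a log2FC of 0.24 ± 0.19 SE for Eif1a and 0.13 ± 0.10 SE for Eif1ax. Eif1ax passed padj with library totals alone (0.36) and, in the other direction, after correction for canonical transcript length (-0.39).

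In eIF3, the largest initiation complex, which recruits the mRNA to the small ribosomal subunit, 5 of 14 genes were downregulated and 0 upregulated, and 11 of 14 passed padj with a lower level at 24m, beside 18.3% downregulated and 29.9% lower by padj over all genes. These 11 ranged in log2FC from -1.23 to -0.25. The log2FC was below 0 for 13 genes, for 12 with library totals alone, and for 10 after correction for canonical transcript length, where Eif3e, Eif3g, Eif3l and Eif3m were above 0. With library totals alone 2 were downregulated and 6 passed padj with a lower level, and after correction for canonical transcript length 3 were downregulated and 6 passed padj lower and 1 higher. Without 24m replicate 1, 7 were downregulated, and without 24m replicate 4, 3 were.

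The lowest log2FC of the complex belonged to Eif3j1 (chr2:121858606-121906334), whose protein is a loosely bound subunit, and it had 37.4, 29.6, 29.3 and 28.0 CPM at 6m and 15.1, 15.3, 11.7 and 10.8 CPM at 24m. The 6m replicate 1 was highest and the groups did not overlap, with 2.35 times the 24m level at 6m (log2FC = -1.23 ± 0.15 SE, edgeR padj = 0.000138). Aligned coding bases of Eif3j1 and Eif3j2 were identical at 100%, so that reads of this pair cannot be told apart there, and Eif3j2 did not pass padj (log2FC = -0.43 ± 0.20 SE), while it was downregulated with quantile normalization (-0.78) or correction for GC content (-0.73) and at -0.025 after correction for exonic length. Eif3k (chr7:28670790-28681353), a subunit dispensable for growth in some organisms, was at 331, 292, 299.8 and 330.4 CPM in the 6m libraries and at 256, 162, 154 and 131 CPM in the 24m libraries. Replicate 1 of 24m was intermediate between the 6m libraries and the other 24m libraries (log2FC = -0.83 ± 0.18 SE, edgeR padj = 0.00331). Eif3i (chr4:129485753-129494849), a WD-repeat subunit, was measured at 273, 251, 243 and 277 CPM at 6m and at 224, 150.3, 141 and 122 CPM at 24m. Again 24m replicate 1 was closest to the 6m libraries (log2FC = -0.71 ± 0.17 SE, edgeR padj = 0.00473), and the Eif3i and Eif3k calls were lost after correction for canonical transcript length, at a log2FC of -0.089 and -0.085, and that of Eif3i with library totals alone (-0.51).

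Eif3f (chr7:108533574-108543245), an MPN-domain subunit, had 496, 445, 453 and 512 CPM at 6m and 394, 298, 289 and 249.5 CPM at 24m. Downregulation (log2FC = -0.63 ± 0.13 SE, edgeR padj = 0.0028) was no longer called without 24m replicate 4 (log2FC = -0.54), with library totals alone (-0.42), with quantile normalization (-0.37) or after correction for exonic length (-0.576). Eif3g, an RNA-binding subunit that was chosen for naming after its values were seen, was just past the fold threshold (log2FC = -0.59 ± 0.14 SE, edgeR padj = 0.00452), and leaving out 6m replicate 1 or 4 or 24m replicate 2, 3 or 4 ended its call, at a log2FC of -0.57 to -0.50. It was not called either with library totals alone (-0.38), with quantile normalization (-0.46), or after correction for GC content (-0.45), exonic length (-0.14) or canonical transcript length (0.051). The scaffold subunit gene Eif3a had the highest log2FC of the complex and was at 66.5, 66.9, 68.2 and 42.1 CPM in the 6m libraries and at 40.9, 72.5, 64.7 and 86.4 CPM in the 24m libraries. These groups overlapped and padj was not passed (log2FC = 0.12 ± 0.23 SE, edgeR padj = 0.665). The other 8 subunit genes were not called, and Eif3b, Eif3c, Eif3d, Eif3e, Eif3h and Eif3l passed padj with a log2FC between -0.53 and -0.25. Summed over the 14 genes, eIF3 mRNA ranged from 2671 to 2940 CPM at 6m and from 1714 to 2412 CPM at 24m, where replicate 1 was highest.

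Within eIF4F, the mRNAs of the main cap-binding protein and of the main helicases differed by less than the fold threshold, whereas the minor cap-binding paralog Eif4e3 was downregulated. Eif4e, the general cap-binding protein, was measured at 66.7, 69.3, 70.6 and 64.1 CPM at 6m and at 58.7, 57.0, 55.2 and 61.1 CPM at 24m. The ages did not overlap and padj was passed at a fold below the threshold (log2FC = -0.22 ± 0.07 SE, edgeR padj = 0.0228). Correction for canonical transcript length placed it past the threshold, at -0.70, and library totals alone placed it at -0.0047. With the replicate block Eif4e did not pass padj. Eif4e3 (chr6:99602081-99643784) had 11.4, 9.52, 9.93 and 11.9 CPM at 6m and 5.73, 5.23, 5.05 and 5.63 CPM at 24m. All 24m libraries lay near 5 CPM, and downregulation was called (log2FC = -0.98 ± 0.11 SE, edgeR padj = 0.000127). Eif4e3 shares its strand and part of its locus with Gm20696, which leaves its counts uncertain. Eif4e2, which represses translation of bound mRNAs, did not pass padj (log2FC = -0.14 ± 0.09 SE). It passed padj with a lower level after correction for exonic length (-0.57) or GC content (-0.23) and with quantile normalization (-0.23). After correction for canonical transcript length it passed with a higher level (0.34).

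For the DEAD-box helicase genes Eif4a1 and Eif4a2, padj was passed with small differences, but not with the replicate block. Eif4a1 was at 259, 276, 269 and 281 CPM in the 6m libraries and at 255, 233, 236 and 225 CPM in the 24m libraries. Its 24m libraries lay below those of 6m (log2FC = -0.20 ± 0.07 SE, edgeR padj = 0.0399). Eif4a2, the paralog that predominates in brain, was measured at 435, 501, 504 and 439 CPM at 6m and at 381, 431, 379 and 417 CPM at 24m. The highest 24m library was just below the lowest 6m library (log2FC = -0.22 ± 0.09 SE, edgeR padj = 0.0491). The sign of these 2 differences was not kept under each scaling, as Eif4a1 was at 0.020 with library totals alone and at 0.18 after correction for canonical transcript length, and Eif4a2 at 0.11 with quantile normalization. Small nucleolar RNA genes, among them Snora81 and Snord2, lie within the Eif4a2 locus on the same strand. Eif4a3, the helicase of the exon junction complex, did not pass padj (log2FC = -0.23 ± 0.13 SE). Eif4a3l2, an Eif4a3-like gene, had 1.02, 0.863, 0.713 and 0.560 CPM at 6m and 0.463, 0.2995, 0.444 and 0.378 CPM at 24m. Downregulation was called (log2FC = -0.99 ± 0.24 SE, edgeR padj = 0.00545), but 96.8% of its aligned coding bases were those of Eif4a3, so that its counts are uncertain, and the call was lost with correction for exonic (-0.36) or canonical transcript length (-0.45).

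Both cofactors of the helicase were higher at 24m. Eif4b (chr15:101982075-102005614), which stimulates eIF4A and is a substrate of S6 kinase, was at 90.8, 111, 107 and 101 CPM in the 6m libraries and at 194, 179, 203 and 219 CPM in the 24m libraries. Its lowest 24m library was far above the highest 6m library, and upregulation was 1.94-fold (log2FC = 0.95 ± 0.09 SE, edgeR padj = 6.01e-05). Eif4h, a related cofactor that was chosen for naming after its values were seen, was measured at 184, 217, 201 and 206 CPM at 6m and at 293, 268, 279 and 258 CPM at 24m. The groups did not overlap and padj was passed below the fold threshold (log2FC = 0.44 ± 0.08 SE, edgeR padj = 0.00126), which was exceeded with library totals alone (0.66) and with quantile normalization (0.60).

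Of the eIF4G scaffold genes, Eif4g2 and Eif4g3 were upregulated, and Eif4g1 did not pass padj. Eif4g1, the main scaffold, had 319, 307, 322 and 346 CPM at 6m and 308, 339, 358 and 370.4 CPM at 24m. The ages overlapped (log2FC = 0.086 ± 0.08 SE, edgeR padj = 0.393), while padj was passed at 0.31 with library totals alone, at 0.35 with quantile normalization and, in the other direction, at -0.56 after correction for canonical transcript length. Eif4g2 (chr7:110666957-110682244), which lacks the eIF4E-binding site and serves cap-independent initiation, was at 179, 217, 225 and 157 CPM in the 6m libraries and at 229, 309, 301 and 386 CPM in the 24m libraries. Its 24m replicate 1 was just above the highest 6m library (log2FC = 0.66 ± 0.17 SE, edgeR padj = 0.00692). Eif4g3 (chr4:137720333-137935819) was measured at 91.0, 98.0, 99.4 and 79.1 CPM at 6m and at 97.1, 153, 162 and 205 CPM at 24m. Here 24m replicate 1 lay within the 6m range and the other 24m libraries above it (log2FC = 0.75 ± 0.19 SE, edgeR padj = 0.00753). Without 24m replicate 4 neither was called (log2FC = 0.53 for Eif4g2 and 0.579 for Eif4g3), and without 6m replicate 4 Eif4g2 was not called (0.56). Neither was called after correction for exonic length (0.25 for Eif4g2 and 0.28 for Eif4g3) or canonical transcript length (-0.085 and 0.095), and Eif4g2 was not called after correction for GC content (0.37).

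The eIF4E-binding protein genes moved in opposite directions. Eif4ebp2 (chr10:61264032-61288567) had 2.74, 3.32, 3.20 and 3.60 CPM at 6m and 6.75, 9.996, 10.4 and 9.55 CPM at 24m. The groups were separate, with 24m replicate 1 the lowest of its age, and upregulation was 2.85-fold (log2FC = 1.51 ± 0.16 SE, edgeR padj = 8.33e-05). Eif4ebp1 (chr8:27750350-27805206) was at 6.87, 7.495, 6.47 and 7.504 CPM in the 6m libraries and at 5.76, 4.33, 4.78 and 3.94 CPM in the 24m libraries. These 24m libraries lay below the 6m libraries (log2FC = -0.59 ± 0.14 SE, edgeR padj = 0.00447), just past the fold threshold, and the call was lost without 6m replicate 2 or 4 or 24m replicate 2 or 4, at a log2FC of -0.56 to -0.51, as well as with library totals alone (-0.38) and after correction for canonical transcript length (-0.31). Eif4ebp3, on chromosome 18, was measured at 7.07, 5.22, 6.88 and 6.64 CPM at 6m and at 2.78, 2.51, 1.97 and 1.66 CPM at 24m. The level at 6m was 2.89 times that at 24m (log2FC = -1.53 ± 0.18 SE, edgeR padj = 0.000146), but its locus overlaps Maskbp3 on the same strand and the 2 cannot be told apart in these counts. The gene of the eIF4E transporter, Eif4enif1, did not pass padj (log2FC = 0.23 ± 0.10 SE).

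**Figure D3:**
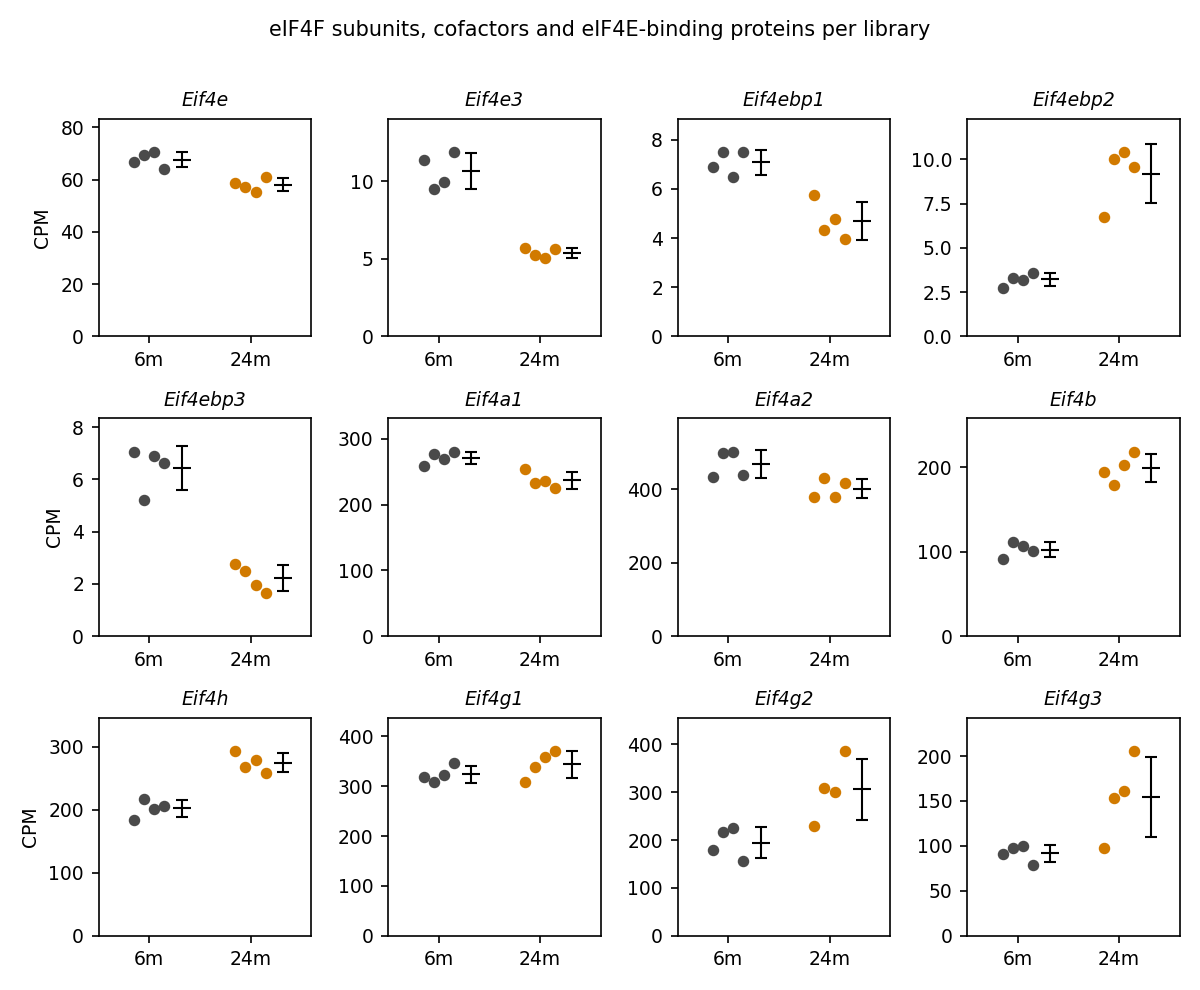
CPM in each of the 8 libraries is plotted for cap-binding proteins, eIF4E-binding proteins, helicases, cofactors and scaffolds of eIF4F, with the mean and SD of the 4 libraries of each age and each vertical axis starting at 0. Eif4ebp2, Eif4b and Eif4h lie higher at 24m and Eif4e3, Eif4ebp1 and Eif4ebp3 lower, without overlap, and 24m replicate 1 is the lowest 24m point for Eif4ebp2, Eif4g1, Eif4g2 and Eif4g3.

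The factors that govern subunit joining were downregulated together, with 3 of 3 genes called. Eif5b (chr1:38037038-38094683), the GTPase that joins the large ribosomal subunit, had 148, 117, 123 and 107 CPM at 6m and 57.8, 62.1, 50.0 and 57.3 CPM at 24m. The 24m libraries were grouped well below the 6m libraries (log2FC = -1.12 ± 0.11 SE, edgeR padj = 6.96e-05). Eif5 (chr12:111502067-111514340), the GTPase-activating protein of eIF2, was at 151, 113, 133 and 120.1 CPM in the 6m libraries and at 67.6, 67.8, 58.6 and 63.9 CPM in the 24m libraries. The level at 6m was 2.00 times that at 24m, with no overlap (log2FC = -1.002 ± 0.10 SE, edgeR padj = 7.34e-05). Eif6, which keeps the ribosomal subunits apart and was chosen for naming after its values were seen, was measured at 187, 159.6, 164 and 187 CPM at 6m and at 166, 101, 101 and 80.5 CPM at 24m. Its 24m replicate 1 lay within the 6m range (log2FC = -0.64 ± 0.19 SE, edgeR padj = 0.0164), and its call was lost without 24m replicate 4, at a log2FC of -0.51. Scaling by library totals alone (-0.44), quantile normalization (-0.53) and correction for canonical transcript length (-0.18) also ended the Eif6 call, and with that correction 2 of the 3 genes were called.

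The 2 genes of eIF5A, the hypusinated factor that helps ribosomes through difficult peptide bonds, differed from each other. Eif5a2 (chr3:28835361-28852995) had 0.655, 1.19, 1.01 and 0.575 CPM at 6m and 2.11, 3.77, 3.16 and 4.23 CPM at 24m. Its levels were low, the groups did not overlap, and upregulation was 3.87-fold, the highest of the initiation factors (log2FC = 1.95 ± 0.29 SE, edgeR padj = 0.000405). Eif5a (chr11:69807422-69827276) was at 598, 562, 556 and 635 CPM in the 6m libraries and at 626, 409.7, 412 and 347 CPM in the 24m libraries. The 24m replicate 1 was within the 6m range and the other 24m libraries below it, and padj was not passed (log2FC = -0.39 ± 0.17 SE, edgeR padj = 0.0629). Without that library Eif5a was at -0.573 and passed padj (edgeR padj = 9.4e-05), as it also did with DESeq2, limma-voom, the replicate block and correction for exonic length (-0.44). The genes of the enzymes that make hypusine from the lysine printed above, Dhps and Dohh, both passed padj with a lower level at 24m, at a log2FC of -0.58 ± 0.16 SE (edgeR padj = 0.0117) and -0.91 ± 0.19 SE (edgeR padj = 0.00263), and Dohh was downregulated.

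Whether paralogs moved apart was tested by their log2 ratio within each library, which does not depend on the scaling between libraries, with two-sided exact permutation tests over the 70 assignments of the libraries to ages. The smallest p this allows is 0.0286, and p-values were adjusted over 6 ratios. The pairs were taken from members and roles chosen with earlier results of these data known, so these p-values are not independent of that choice. A trend over transcript length can still enter a ratio where the paralogs differ in length. No ratio was tested after correction for canonical transcript length. Eif4ebp2 relative to Eif4ebp1 was between -1.32 and -1.01 at 6m and between 0.23 and 1.27 at 24m, a log2 difference of 2.09 (exact permutation p = 0.0286, adjusted 0.0429). After correction for canonical transcript length, the log2FC was 0.89 for Eif4ebp2 and -0.31 for Eif4ebp1. Eif5a2 relative to Eif5a differed by 2.36 on the log2 scale (exact permutation p = 0.0286, adjusted 0.0429), with 24m replicate 1 nearest to the 6m libraries. With correction for canonical transcript length, Eif5a2 was at a log2FC of 1.43 and Eif5a at 0.13. Eif4e3 relative to Eif4e differed by -0.75 (exact permutation p = 0.0286, adjusted 0.0429). Correction for canonical transcript length brought their log2FC closer together, to -0.89 and -0.70, and correction for exonic length placed them at -0.70 and -0.35. Eif1b relative to Eif1 differed by 0.12 (exact permutation p = 0.0286, adjusted 0.0429), a small shift in which the libraries did not overlap. The log2FC of Eif1b and Eif1 lay further apart after correction for exonic length (-0.045 and -0.33) or canonical transcript length (0.056 and -0.20). In these 4 pairs the libraries of the ages were separate.

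Eif4g3 relative to Eif4g1 differed by 0.62 and did not reach the threshold (exact permutation p = 0.0571, adjusted 0.0686), but the groups were separate without 24m replicate 1 (0.77, exact permutation p = 0.0286). Eif4a2 relative to Eif4a1 was 0.79 ± 0.12 at 6m and 0.76 ± 0.15 at 24m (log2 ratio, SD, n = 4), with overlapping libraries and a difference of -0.027 (exact permutation p = 0.771). Leaving out any single 6m library raised the exact permutation p to 0.0571 for Eif5a2 relative to Eif5a (difference 2.16 to 2.55) and to 0.0857 for Eif1b relative to Eif1 (0.11 to 0.13). The share of identical aligned coding bases was 81.1% for Eif1 and Eif1b, 78.7% for Eif4a1 and Eif4a2, 73.2% for Eif5a and Eif5a2, 69.1% for Eif4ebp1 and Eif4ebp2, 66.8% for Eif4g1 and Eif4g3 and 54.4% for Eif4e and Eif4e3.

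**Figure D4:**
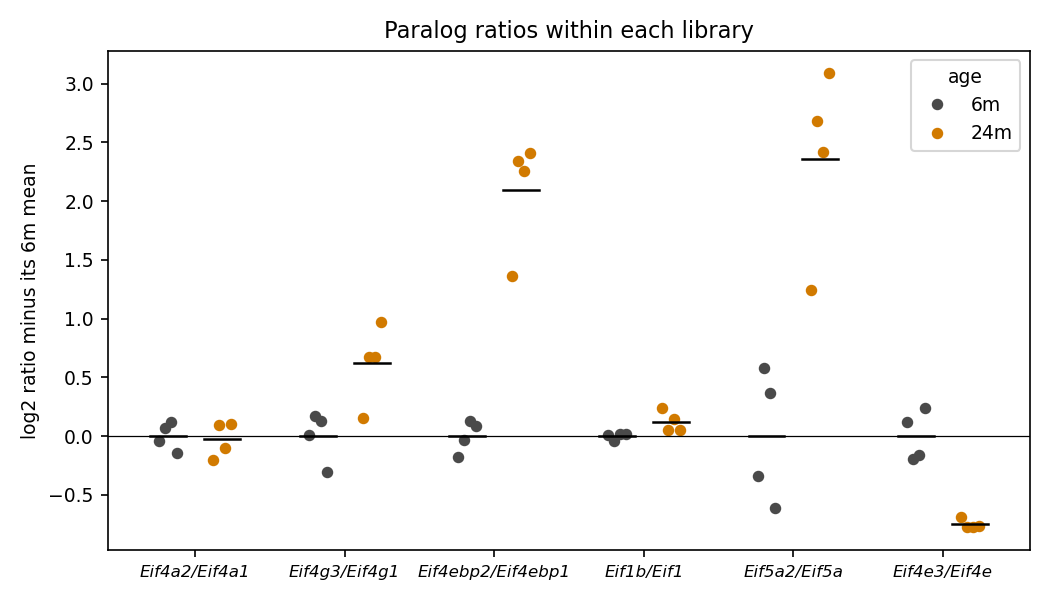
The log2 ratio of CPM of 6 paralog pairs is plotted for each library after subtracting the mean 6m ratio of the pair, with a line at the mean of the 4 libraries of each age. The 24m points lie above the 6m points for Eif4ebp2/Eif4ebp1, Eif5a2/Eif5a and Eif1b/Eif1, below them for Eif4e3/Eif4e, and overlap for the other 2 pairs.

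Transcript length moved with the fold changes. The Spearman correlation of canonical transcript length with log2FC was 0.564 across 16677 genes and 0.416 across the 54 initiation factors, given as a description since genes share the libraries. Of the 16 initiation factors with transcripts of at most 2 kb, 0 were up- and 8 downregulated, beside 150 and 1817 of the 3999 genes of such length, and their median log2FC was -0.52 beside -0.57. The 23 of 2 to 4 kb had a median of -0.31 beside -0.024 for all genes, with 2 up- and 7 downregulated beside 1059 and 827 of 6331 genes. The 15 over 4 kb had a median of 0.13 beside 0.55 for all genes, with 6 up- and 3 downregulated beside 3014 and 401 of 6347 genes. The 3 downregulated genes over 4 kb were Eif5b, Eif5 and Eif3j1. When the trend over canonical transcript length was removed, an alternative added after seeing the data, 6 initiation factors were up- and 11 downregulated. Their median was -0.088, beside -0.023 for all 16730 genes, of which 2978 were up- and 2506 downregulated. The part of length in each gene's difference was not tested beyond this correction.

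**Figure D5:**
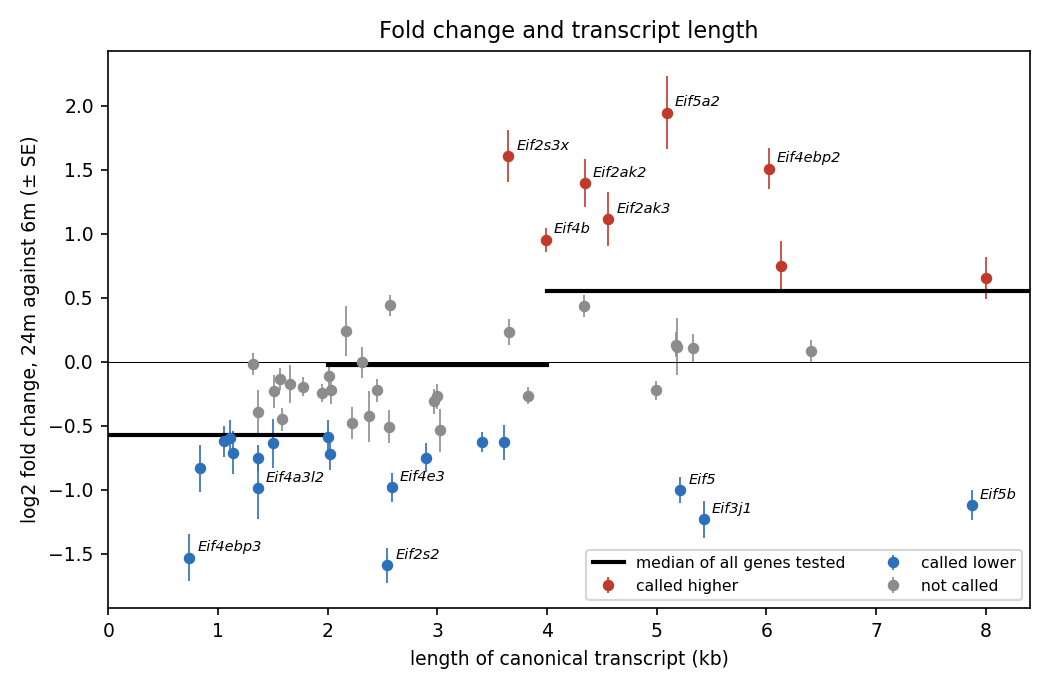
The log2 fold change of 24m against 6m, with bars of 1 standard error, is plotted against the length of the canonical transcript in kilobases for the 54 tested initiation factors, and the black lines give the median of all genes tested up to 2 kb, from 2 to 4 kb and over 4 kb. Eif2s2, Eif5, Eif3j1 and Eif5b lie far below the line of their length class, and Eif2s3x and Eif5a2 far above theirs.

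Over 19 alternative settings of scaling, test, filter, correction and library choice, 12 of the 26 called initiation factors were called each time they were tested. The upregulated genes among them were Eif5a2, Eif2s3x, Eif4ebp2, Eif2ak2, Eif2ak3 and Eif4b, and the downregulated genes were Eif2s2, Eif4ebp3, Eif3j1, Eif5b, Eif5 and Eif4e3. Eif2ak2 was tested in 18 of the settings, since it failed a filter of 1 CPM. The sign was kept in each setting by 23 of the 26, and the exceptions were Eif1b, Eif3g and Eif4g2 after correction for canonical transcript length. Without 24m replicate 1, Eif2b5 (-0.63), Eif3d (-0.59) and Eif3h (-0.72) were downregulated as well, and Eif2b2 (-0.33), Eif2d (-0.31), Eif4a3 (-0.35), Eif1ax (0.22), Eif4enif1 (0.33) and Eif5a passed padj, which Eif4a2 then did not. Of the genes that passed padj below the fold threshold, Eif2b3, Eif3b, Eif3h, Eif3l, Eif4a1, Eif4a2 and Eif4e each missed it on leaving out at least 1 library, and Eif2b3, Eif3b, Eif3c, Eif3e, Eif3h, Eif3l, Eif4a1, Eif4a2 and Eif4e with library totals alone. Downregulation was added by correction for exonic length for Eif2b5 (-0.83), Eif2d, Eif3d (-0.73), Eif3e (-0.88) and Eif3h (-0.83), and by correction for GC content for Eif2b5 (-0.60), Eif3e (-0.70) and Eif3h (-0.76). Correction for canonical transcript length moved called genes by over 1.5 times without ending the call for Eif4ebp2 (0.89), Eif4ebp3 (-0.71), Eif2ak3 (0.69), Eif5 (-1.52) and Eif5b (-1.81), and correction for exonic length did so for Eif4ebp1 (-0.93) and Eif4ebp3 (-0.93).

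The 18 initiation factor genes that were not tested had few or no counts. No count was seen for 16 genes of the Eif1ad cluster on chromosome 12, which allows a level of up to 0.0290 to 0.0498 CPM in a library (3 counts, counting error only) provided that reads of these similar genes were counted, since the use of multimapping reads is not known. Eif4a3l1 had 26 counts in all 8 libraries together and Eif4e1b, a cap-binding protein known from oocytes, had 5.

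Genes that work with the initiation factors but lie outside the name rule were described by lists, to be read beside the 25.3% of all tested genes that were upregulated and the 18.3% that were downregulated. Calls in these lists, and of Dhps and Dohh, come from the edgeR fit with TMM factors alone. They were not compared over the alternative settings. Of 18 partners and regulators of eIF4F, 8 were up- and 2 downregulated, with a median log2FC of 0.53 beside -0.0034 for all genes. The highest was Fmr1, the fragile X protein gene, at 1.35 ± 0.33 SE (edgeR padj = 0.00598), and the lowest Rps6kb2, an S6 kinase gene, at -0.95 ± 0.12 SE (edgeR padj = 0.000209). Of 8 scanning and recycling factors, 2 were up- and 4 downregulated, with a median of -0.54. The helicase gene Ddx3x was highest at 1.64 ± 0.27 SE (edgeR padj = 0.000772) and Mcts1, whose protein acts in ribosome recycling, lowest at -0.87 ± 0.08 SE (edgeR padj = 4.26e-05).

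Of 12 elongation and termination factors, 3 were up- and 3 downregulated, with a median log2FC of -0.38, beside the same 25.3% and 18.3% of all genes. Abce1, the ribosome-splitting factor, was highest at 1.01 ± 0.28 SE (edgeR padj = 0.0103) and Eef1d, part of the exchange factor of eEF1A, lowest at -0.86 ± 0.13 SE (edgeR padj = 0.000448). Of the mitochondrial initiation factors, Mtif2 and Mtif3 were not called, and both passed padj with a lower level at 24m (log2FC = -0.36 and -0.32).

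Of 12 genes listed for the integrated stress response, the program that follows phosphorylation of eIF2 alpha, 3 were upregulated (Ppp1r15b, Sesn2 and Vldlr) and 3 downregulated (Atf4, Atf5 and Ddit3), beside 25.3% and 18.3% of all genes, with a median log2FC of -0.062. Ppp1r15b, the constitutive subunit that targets a phosphatase to eIF2 alpha and not an induced gene of this program, was highest at 1.90 ± 0.22 SE (edgeR padj = 0.000116). Its inducible counterpart Ppp1r15a, named after its values were seen, passed padj with a lower level below the fold threshold (log2FC = -0.44 ± 0.11 SE, edgeR padj = 0.00541). Ddit3, which encodes the transcription factor CHOP, was lowest at -0.98 ± 0.13 SE (edgeR padj = 0.000245). Atf4, the main transcription factor of the response and named after its values were seen, stood at 324 to 381 CPM in the 6m libraries and 153 to 197 CPM in the 24m libraries (log2FC = -0.97 ± 0.10 SE, edgeR padj = 6.89e-05).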

How the data were processed

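The 8 libraries, 4 of each age, were taken as groups from their age labels. According to the labels and the published methods, adapters were trimmed with Trim Galore 0.4.11, reads were aligned to GRCm39 with HISAT2 2.1.0, and the authors assigned them to Ensembl genes with featureCounts. Use of strand and of multimapping reads is not given in the sources used here, so counts of paralogs and overlapping genes carry that uncertainty. The deposited values are raw counts per gene and library without normalization or pooling. No column of another sample was present, and 22281 of the 22430 listed genes matched the GENCODE annotation of GRCm39, from which symbols, positions and lengths were taken. The members, roles and lists were chosen with earlier results of these data known.

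Genes were tested where they exceeded 5 counts in at least 4 libraries, by quasi-likelihood fits in edgeR 4.0.16 under R 4.3.3 with TMM factors, where the study used DESeq2 on normalized counts, and p-values were adjusted over 16730 genes. Standard errors were computed as the log2 fold change divided by the square root of F. CPM are counts per 1e+06 of the TMM-scaled library size. Paralog ratios used a prior count of 2 and exact permutation tests (scipy 1.17.1). On data simulated for this comparison, 67% of 200 genes with a log2 change of 1 were recovered with 4 false calls among 16730 genes, and 0 calls were made when no gene changed. The simulation drew directions at random and held no length trend, whereas 43.6% of genes were called in the data. Its rates therefore do not give the error of the calls reported here. Chi-square per degree of freedom between libraries of the same age was 8.18 to 417 over 12 pairs, so each library was counted as a replicate. Alternatives were other scalings, tests (DESeq2 1.42.0, limma 3.58.1), filters, corrections for length and GC content, a replicate block and leaving out each library. Values per library are given for up to 20 called genes without overlap between ages in the order of their fold change, for the paralog pairs, Eif4g2, Eif2s1, the eIF2 alpha kinases and the highest and lowest eIF3 gene, and exceptions are stated where they occur.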

Additional observations from a re-analysis of the deposited data

Results flagged for a closer look

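Of 120 sets of 4 libraries (the CPM of each tested initiation factor and the log2 ratio of each paralog pair, at each age), 6 had a library set apart from the others of its age by a gap that, as a share of the whole range, passed Dixon's 95% critical value, and chance alone marks about 1 in 20. In the 24m group this library was replicate 1 each time: Eif2b3 was highest there at 23.0 CPM (gap of 0.912 of the range), the log2 ratio of Eif4ebp2 to Eif4ebp1 was lowest at 0.23 (0.855), and that of Eif4e3 to Eif4e was highest at -3.35 (0.91). In the 6m group, replicate 4 was lowest for Eif2ak2 at 0.363 CPM (0.9) and for Eif3a at 42.1 CPM (0.936), and replicate 1 was highest for Eif3j1 at 37.4 CPM (0.836).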

How the results depend on the processing

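DESeq2, limma-voom, DESeq2 size factors in edgeR and the absence of a filter left each compared count within 1.5 times and neither ended nor added a call of a gene named with its values, although Eif5a passed padj with DESeq2 and limma-voom, and Eif4a1, Eif4a2 and Eif2b3 no longer passed it without a filter. With library totals alone, 1747 genes and 8 initiation factors were downregulated, and with padj alone 4999 and 29 were lower at 24m. Removing the trend over canonical transcript length, which was added after seeing the data, left 11 initiation factors downregulated and turned the sign of Eif1b (0.056), Eif3g (0.051), Eif4g2 (-0.085), Eif5a (0.13), Eif4g1 (-0.56), Eif3a (-0.42), Eif2ak4 (-0.44) and Eif4a1 (0.18), and, among genes without values per library, of Eif1ax (-0.39), Eif2a (0.19), Eif2b1 (0.18), Eif2b2 (0.24), Eif2d (0.054), Eif3e (0.0080), Eif3l (0.070), Eif3m (0.56), Eif4a3 (0.24) and Eif4e2 (0.34). The sign of Eif2ak4 also turned with quantile normalization (-0.11) and with removal of the trend over exonic length (-0.43) or GC content (-0.045), that of Eif3a with exonic length (-0.27) and GC content (-0.16), that of Eif4g1 with exonic length (-0.19), that of Eif4a1 with library totals (0.020) and that of Eif4a2 with quantile normalization (0.11). The cause was not tested. Leaving out each library gave 3825 to 4673 up- and 2615 to 3592 downregulated genes, 6 to 8 up- and 13 to 21 downregulated initiation factors, a log2FC of -0.036 to 0.31 for Eif3a, and differences of 0.080 to 0.14 for Eif1b/Eif1, -0.075 to 0.033 for Eif4a2/Eif4a1, -0.82 to -0.67 for Eif4e3/Eif4e, 1.99 to 2.33 for Eif4ebp2/Eif4ebp1, 0.50 to 0.77 for Eif4g3/Eif4g1 and 2.12 to 2.73 for Eif5a2/Eif5a. Removal of the GC trend placed Eif4a2/Eif4a1 at -0.25 (exact permutation p = 0.0286). Same-numbered libraries of both ages deviated from their group means with correlations of 0.271, 0.143, 0.0778 and -0.348. For replicate 1 its own number gave the highest value (best other 0.0148), and for the other numbers it did not. The numbers were therefore not used as pairs, and whether a number marks a shared batch was not tested. With the replicate block, 8 initiation factors were up- and 18 downregulated, and 4112 and 3130 genes, while 9 of 14 eIF3 genes passed padj with a lower level. The exact sign-flip test over the 4 numbers, which cannot give less than 0.125, gave p = 0.125 for the paralog differences of 2.09 (Eif4ebp2/Eif4ebp1), 0.12 (Eif1b/Eif1), 2.36 (Eif5a2/Eif5a) and -0.75 (Eif4e3/Eif4e) with this replicate block. The Eif1ad cluster, Eif4a3l1 and Eif4e1b failed the filter on low counts and were not tested, and what greater depth would give was not tested.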
